A study of Mus musculus with 13 samples.

Results

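The regions described here are places in the genome of Ba/F3 cells, a mouse pro-B cell line that needs interleukin 3 (IL3) to grow, where chromatin immunoprecipitation and sequencing (ChIP-seq) found the deacetylase HDAC3 after IL3 but not before it, and where the transcription factor STAT5A was found as well. A region was included when it was in the HDAC3 list of the pooled libraries with IL3, lay on an assembled chromosome, overlapped no region of the pooled HDAC3 list without IL3, and overlapped a region of the pooled STAT5A list with IL3 by 1 bp or more. The members were thus chosen by region calls, that is by measured HDAC3 and STAT5A signal, and those calls are given below as a description. This rule gave 347 of the 1208 pooled HDAC3 regions with IL3, and of 35997 regions when the 6 pooled lists are merged. Of the 1208, 711 (58.9%) were absent without IL3 and 709 (58.7%) overlapped STAT5A, and of the 711 absent without IL3, 48.8% overlapped it. The cells were kept in 1 ng/mL IL3. The state "without IL3" is the end of a 6 h deprivation, and the state "with IL3" is the same deprivation followed by 30 min of 10 ng/mL IL3. STAT5A, LSD1 and HDAC3 were precipitated in each condition, with 2 biological replicates per protein and condition, all from the same line with no genetic change named in the labels. An input library from cells in maintenance IL3 was not used here. Lists of regions give no expression values, so the cell type was not checked against marker levels.

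IL3 acts through a receptor that switches on the kinase JAK2, which phosphorylates STAT5 (STAT5A and STAT5B), and the phosphorylated factor enters the nucleus and binds a palindrome of the form TTCNNNGAA. Cish, Socs1, Socs3 and Osm are well-known targets, and the products of the first 3 damp the same pathway. HDAC3 removes acetyl groups from histones as the enzyme of the NCoR and SMRT corepressor complexes, and LSD1 removes methyl groups from histone H3 as the enzyme of the CoREST complex. Both are mostly known as parts of repressor complexes, and both have also been found at active genes.

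The sequence at the regions can be shown only where they lie at annotated gene starts, because the reference used here holds RefSeq (GRCm38.p6) windows of 300 bases around starts and no whole genome. Of the 347 regions, 30 had 50 or more bases inside such a window. Below are stretches of 7 of these windows, chosen after their values were seen. They are 4 that hold a STAT-like palindrome, the start with the highest HDAC3 score, and 2 others, at Rps15 and Arl5b. The last 2 had STAT5A scores of 29.9 and 19.2, beside a median of 23.5 for all STAT5A regions with IL3. Capitals mark TTCNNNGAA or TTCNNNNGAA, which read the same on both strands. Positions count from the start base as 0, and no stretch runs past base 20.
Irf9: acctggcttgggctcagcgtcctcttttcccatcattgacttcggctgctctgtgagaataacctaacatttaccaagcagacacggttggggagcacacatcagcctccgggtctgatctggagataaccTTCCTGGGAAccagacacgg
Arhgdib: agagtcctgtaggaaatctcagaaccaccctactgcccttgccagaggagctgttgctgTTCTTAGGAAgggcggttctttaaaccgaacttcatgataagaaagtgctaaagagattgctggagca
Plscr1: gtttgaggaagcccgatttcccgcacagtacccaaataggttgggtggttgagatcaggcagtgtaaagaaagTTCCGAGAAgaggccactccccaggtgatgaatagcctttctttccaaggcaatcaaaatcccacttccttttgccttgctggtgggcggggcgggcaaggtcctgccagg
Socs3: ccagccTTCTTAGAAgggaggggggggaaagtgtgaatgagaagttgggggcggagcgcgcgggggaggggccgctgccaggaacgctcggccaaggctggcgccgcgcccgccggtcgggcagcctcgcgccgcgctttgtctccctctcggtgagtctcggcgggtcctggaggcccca
Tbl1xr1: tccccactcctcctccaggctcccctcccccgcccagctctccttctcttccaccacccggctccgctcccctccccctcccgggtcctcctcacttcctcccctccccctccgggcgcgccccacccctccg
Rps15: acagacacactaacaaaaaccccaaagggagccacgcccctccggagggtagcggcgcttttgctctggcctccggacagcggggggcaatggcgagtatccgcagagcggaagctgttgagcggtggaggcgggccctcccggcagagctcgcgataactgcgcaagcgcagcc
Arl5b: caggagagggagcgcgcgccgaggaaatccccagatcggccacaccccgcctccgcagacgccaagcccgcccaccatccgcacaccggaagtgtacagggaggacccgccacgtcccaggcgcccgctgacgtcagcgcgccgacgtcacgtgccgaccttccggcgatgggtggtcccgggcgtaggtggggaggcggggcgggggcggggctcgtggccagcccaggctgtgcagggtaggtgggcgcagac

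The Irf9 stretch is chr14:55603855-55604005 on the plus strand. Irf9 encodes a DNA-binding protein of interferon signalling. Its 10-base palindrome is centred 6 bases after the start, inside the HDAC3 region (bases -129 to 23) and at the edge of the STAT5A region (bases 6 to 180). The Arhgdib stretch, chr6:136941483-136941609 on the minus strand, has its 10-base palindrome 42 bases before the start, inside both regions. The Plscr1 stretch, chr9:92250031-92250214 on the plus strand, has the 9-base STAT palindrome 86 bases before the start, inside the STAT5A region and outside the HDAC3 region, which begins at base -67. Plscr1 encodes a phospholipid scramblase that interferon induces. In the Socs3 stretch, chr11:117969346-117969526 on the minus strand, the palindrome lies 150 bases before an annotated start inside the gene and outside both regions. The Socs3 STAT5A region (bases 40 to 214) lies wholly past the printed stretch. The Tbl1xr1 stretch (chr3:22076402-22076534, plus strand), the Rps15 stretch (chr10:80292277-80292451, plus strand) and the Arl5b stretch (chr2:15055071-15055325, plus strand) held neither palindrome. They were rich in G and C, at 75.2%, 65.7% and 74.1% of bases. HDAC3 scores were 14 at Irf9, Arhgdib and Plscr1, 15.8 at Socs3, 45.7 at Tbl1xr1 and 12.3 at Rps15 and Arl5b. HDAC3 replicate 1 with IL3 called the regions at Arhgdib, Socs3 and Tbl1xr1. Those at Irf9, Plscr1, Rps15 and Arl5b were in neither HDAC3 replicate and rest on the pooled library. By the gene that holds it or lies nearest, the region shown at the Arl5b start is named Nsun6. Its centre lay 0.002 kb from a gene bound.

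Across the 30 regions, the stretches that lay in both the HDAC3 region and the window held TTCNNNGAA in 0 cases and TTCNNNNGAA in 2. In their whole 300-base windows, 2 of 30 (6.67%) held TTCNNNGAA, beside 7.69% of all 21237 windows. For comparison, STAT5A regions with IL3 reach into a window in 1662 cases, and those windows held it in 16.6%. Within the stretches of the STAT5A regions alone it was 13.3% of the 1662, beside 3.95% of the middle 153 bases of all windows. The count of 0 above is over stretches of HDAC3 regions, so it is not a like measure to the 13.3%. TTCNNNNGAA occurred in 6.67% of the 30 windows and 6.34% of all. The median G and C content of the 30 stretches was 63.7%, and that of all windows was 56.3%. A match is a string of letters and not a measured site, and these 30 regions at gene starts do not stand for the others.

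Support in single HDAC3 libraries was uneven. Of the 347 regions, 172 (49.6%, 95% Wilson interval 44.3 to 54.8) were also called in HDAC3 replicate 1 with IL3, where 42.5% of all pooled HDAC3 regions with IL3 were. In replicate 2 with IL3, 4 (1.15%) were called, beside 6.04% of all. None of the 347 was in both replicate lists (1.08% of all), and 171 were in neither and rest on the pooled library (52.6% of all). The 4 called in replicate 2 alone lay at the starts of Gars and Clk2, at Phip and beyond the end of Fgd2. Their STAT5A scores were 19.2 to 29.9, beside medians of 66.2 for the 347 and 23.5 for all STAT5A regions with IL3. The replicate 2 list with IL3 held 234 regions on assembled chromosomes, 79.5% of its summed score lay in 1 region, and it named few of the regions that replicate 1 or the pool did. With the replicate 1 list in place of the pooled one the rule found 237 regions, and with the replicate 2 list it found 12. Intervals on shares cover counting error only.

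The HDAC3 lists of single libraries without IL3 held few of the regions. These lists, which the rule did not use, overlapped 9 (replicate 1) and 3 (replicate 2) of the 347, 11 in all, beside 30% and 11.5% of all pooled HDAC3 regions with IL3, most of which the rule leaves out by construction. The pooled list without IL3 was the longer one, with 3347 regions on assembled chromosomes. When the replicate 1 list without IL3 was left out, so that replicate 2 alone defined absence, the rule found 613 regions. The plot of shares by library sets each of these values beside that of all HDAC3 regions.

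**Figure D1:**
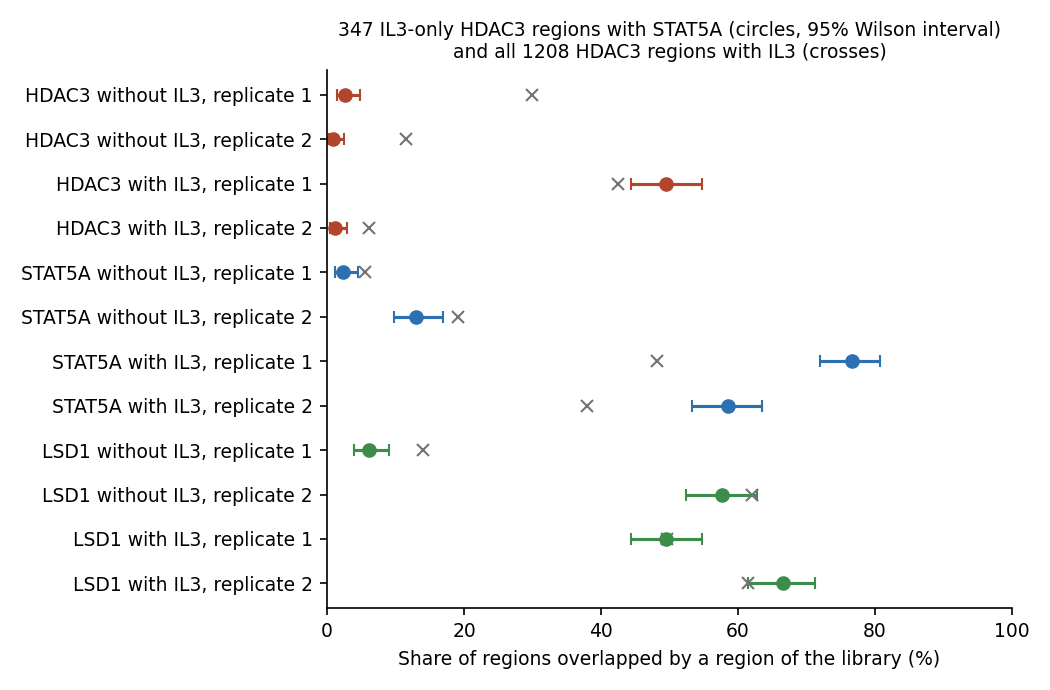
Share of the 347 regions (circles, with 95% Wilson intervals) and of all 1208 HDAC3 regions with IL3 (crosses) that overlap a region of each of the 12 libraries, in percent. HDAC3 replicate 1 with IL3 held 49.6% of the 347 and replicate 2 held 1.15%, while STAT5A with IL3 held 76.7% and 58.5%.

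HDAC3 scores were low across the set. The score is the authors' own, and no label or header defines it. In the pooled list with IL3 low scores are whole multiples of 1.757, and if 1 such step is 1 read, the 347 regions span 6 to 27 reads with a median of 9. As scores they ran from 10.5 to 47.4 with a median of 15.8, equal to the median of the whole list. A score of 14 or less was held by 125 regions (36.0%), and one over 25 by 16 (4.61%). The lowest score in the pooled list without IL3 was 11.1, so that a region just under that score without IL3 would count as absent. With IL3, 37 of the 347 scored 12.3 or less. Score steps were 2.225 without IL3 and 1.757 with it, so the scores of these 2 lists are not on a common scale.

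STAT5A at the same places was strong. Their STAT5A regions, 347 different ones, had a median score of 66.2, with quartiles of 25.6 and 203, beside 23.5 for all 15543 STAT5A regions with IL3. The HDAC3 regions of both conditions that overlap STAT5A (362) had a median STAT5A score of 42.7. Of the 102 highest-scoring STAT5A regions with IL3 (the first 100 with ties), 27 carried one of the 347 HDAC3 regions and 15 an HDAC3 region of both conditions. At the other end, 74 of the 347 had a STAT5A score in the lower part of that list. Since overlap with a STAT5A region chose the set, these scores describe it and are not a test. STAT5A replicate 1 with IL3 called 76.7% of the 347 and replicate 2 58.5%, beside 48.2% and 37.9% of all pooled HDAC3 regions. Of the latter only 58.7% overlap pooled STAT5A, so the rule itself favours the 347 here. In HDAC3 regions of both conditions with STAT5A the replicates called 81.5% and 57.7%, near the shares of the set. Of the 347, both replicates called 157 (45.2%, beside 46.7% in that class), replicate 1 alone 109, replicate 2 alone 46 and neither 35. Regions called in HDAC3 replicate 1 had a median STAT5A score of 136, and those in neither HDAC3 replicate had 32. The plot of the 2 scores shows that the highest HDAC3 scores go with replicate 1 calls, and that STAT5A scores over 100 occur at low HDAC3 scores as well.

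**Figure D2:**
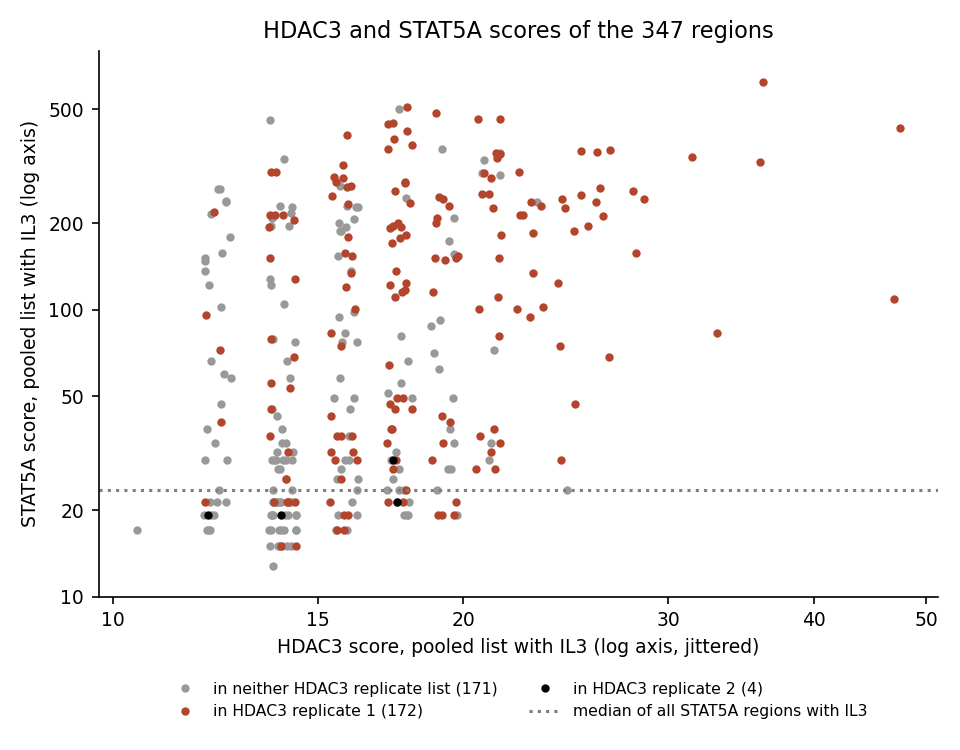
HDAC3 score (horizontal) against STAT5A score (vertical) in the pooled lists with IL3, both on log axes, 1 point per region. Red points are the 172 regions also called in HDAC3 replicate 1, black the 4 of replicate 2 and grey the 171 in neither, and the dotted line is the median of all STAT5A regions with IL3, 23.5.

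The highest HDAC3 score of the set was at Cish, which encodes a STAT5-induced inhibitor of cytokine receptor signalling. This region, chr9:107312898-107313050 (mm10), lies 10.2 kb beyond the 3 prime end of the gene and scored 47.4 for HDAC3 in the pool and 57.5 in replicate 1. HDAC3 was not called there in replicate 2 or in either replicate without IL3. Its STAT5A score was 431.5 in the pool, 667.5 in replicate 1 and 120 in replicate 2, and STAT5A was not called without IL3. LSD1 was called in 1 of 4 libraries there, replicate 2 with IL3 (45.3), and in both pooled LSD1 lists, at 22.8 without IL3 and 39.8 with it. A second Cish region, chr9:107307911-107308063, 5.202 kb beyond the same end, had an HDAC3 score of 35.1 and a STAT5A score of 326.9. There both LSD1 replicates with IL3 called a region (37.1 and 74.6), and no LSD1 list without IL3 did. Both Cish regions were among the 4 highest HDAC3 scores of the set.

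Next came a region at the start of Tbl1xr1, which encodes a subunit of the NCoR complex that HDAC3 itself belongs to. It scored 45.7 for HDAC3 (54.8 in replicate 1), and all 3 proteins were called there in some replicate without IL3. HDAC3 was called in replicate 2 without IL3 (33), STAT5A in replicate 2 both without (54.3) and with IL3 (225.1), and LSD1 in both replicates without IL3 (75.6 and 57.9) and replicate 1 with IL3 (24.8). A region 123.2 kb upstream of the same gene scored 28.1 for HDAC3 and 243.5 for STAT5A, and HDAC3 was called there in replicate 1 with IL3 (21.9) and also in replicate 1 without it (39.5). These Tbl1xr1 regions are 2 of the 11 that overlap a replicate HDAC3 list without IL3.

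The strongest STAT5A region of the set, and the second of all STAT5A regions with IL3, lay 94.6 kb from the start of Max, which encodes the partner of MYC. Its STAT5A scores were 839.1 and 335.1 in the replicates with IL3, and STAT5A was in no list without IL3. HDAC3 scored 36.9 there (43.8 in replicate 1), and LSD1 was called in 3 of 4 libraries, at 33.5 without IL3 (replicate 2) and at 37.1 and 66.6 with it. The other 9 of the 10 strongest by STAT5A, from 508.4 down to 431.5, lay at Tmprss6, Bcl2l1 and Nsmce2 and nearest to Hormad2, Dusp1, Podxl, Srp9, Socs1 and Cish. Socs1, a STAT5-induced inhibitor of JAK kinases, had its region 11.3 kb beyond its end, with STAT5A at 600.4 and 255.1 and HDAC3 at 19.2 in replicate 1. Bcl2l1, the gene of the anti-apoptotic BCL-XL, carried a STAT5A score of 459.3 and an HDAC3 score of only 14, in neither HDAC3 replicate.

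Osm, the cytokine oncostatin M and a classic STAT5 target, had a region 82 bp and another 920 bp outside a gene bound. The nearer one scored 26.3 for HDAC3 (27.4 in replicate 1) and 354.6 for STAT5A (399 and 265.1 in the replicates). The farther one scored 22.8 and 237.1, with HDAC3 in neither replicate. LSD1 was almost absent from this locus: of the 4 LSD1 libraries 1 had a call, replicate 2 with IL3 (34.6), at the nearer region alone. At Socs3 the region scored 15.8 for HDAC3 (21.9 in replicate 1) and 288.4 for STAT5A (272.2 and 310.1), and LSD1 was called in replicate 2 of each condition, at 27.4 without IL3 and 29.3 with it.

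At 50 kb or less from each other, 65 of the regions formed 31 groups, 3 of them with 3 members. The groups of 3 lay at Rai14, Dusp1 and Furin. At Furin, a proprotein convertase gene, the regions lay 1.20, 11.9 and 14.03 kb from the start, all 3 were called in HDAC3 replicate 1 (27.4, 19.2 and 21.9), and their STAT5A scores were 74.8, 194.4 and 243.5. The Dusp1 group spans the start of this MAP kinase phosphatase gene (HDAC3 19.3, STAT5A 27.8), a region 6.30 kb away (15.8 and 49.1) and one 25.5 kb away (19.3 and 487.1). HDAC3 replicate 1 called the last of these alone. At Rai14 all 3 regions, 48.5 to 72.5 kb from the start, were in HDAC3 replicate 1, and their STAT5A scores were 237.1, 34.2 and 34.2. Chromosome 19 held the most members, 32 (9.22%), and it held 7.45% of all pooled HDAC3 regions with IL3.

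STAT5A was seldom found at these places before IL3. The pooled STAT5A list without IL3 overlapped 61 of 347 (17.6%, 95% Wilson interval 13.9 to 21.9), beside 26.8% of all pooled HDAC3 regions with IL3. Replicate 1 without IL3 overlapped 8 (2.31%, beside 5.46%) and replicate 2 overlapped 45 (12.97%, beside 19.1%). Their mean share was 7.64%. For the 12 regions found with the HDAC3 replicate 2 list with IL3 in place of the pooled one, it was 25%. Of the 347, 3 were in both, nearest to Clint1 and Irf2bpl and at the start of Rin1, and 50 were in either. The 61 regions with STAT5A in the pool without IL3 had a median STAT5A score with IL3 of 36.3, and 20 of them (32.8%) lay within 1 kb of a gene start or end. In IL3-only HDAC3 regions without STAT5A, the share without IL3 was 14.8% in the pool and 1.65% and 12.4% in the replicates. In HDAC3 regions of both conditions with STAT5A it was 47.5% in the pool. The low share was thus not particular to the set.

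LSD1, which the rule did not use, was present at most of the regions. The pooled LSD1 lists overlapped 259 of 347 (74.6%) with IL3 and 210 (60.5%) without, beside 69% and 64.2% of all pooled HDAC3 regions with IL3. Both pooled lists overlapped 180, the list with IL3 alone 79, the list without IL3 alone 30, and neither 58. Over single libraries the share was 49.6% (replicate 1) and 66.6% (replicate 2) with IL3, beside 49.7% and 61.5% of all HDAC3 regions. Without IL3 it was 6.05% and 57.6%, beside 14.1% and 62.1%. The shares of the set are thus near those of all HDAC3 regions in 3 of the 4 libraries and lower in replicate 1 without IL3. The mean was 58.1% ± 12.02 (SD, n = 2) with IL3 and 31.8% ± 36.5 (SD, n = 2) without, a difference of 26.2 points that is smaller than the spread between the replicates without IL3 (two-sided exact permutation test, p = 0.667, smallest possible 0.333). It rests on replicate 1 without IL3, whose list is the shortest of the 4 with 1005 regions, and without that library it was 0.43 points. Low scores in that list were multiples of 15.121, beside 3.05 in replicate 2 without IL3 and 2.477 and 2.666 with IL3. Its lowest score was 60.5, beside 15.2, 12.4 and 16 in the others. Whether that library was sequenced less deeply was not tested.

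The set was then compared with other classes of region, library by library. IL3-only HDAC3 regions without STAT5A (364) overlapped LSD1 in 4.67% and 32.4% without IL3 and in 19.8% and 29.9% with it. The 347 exceeded them by 1.38, 25.2, 29.8 and 36.6 points, with a mean of 23.3 (two-sided exact sign-flip permutation test over 4 libraries, p = 0.125, the smallest possible, and 0.167 after Benjamini-Hochberg adjustment over 4 tests). HDAC3 regions of both conditions with STAT5A (362) overlapped LSD1 more often, in 30.1% and 92.8% without IL3 and 79.8% and 89.5% with it. The 347 were below them in 4 of 4 libraries, by a mean of -28.1 points (same exact test, p = 0.125, adjusted 0.167). Against the 135 HDAC3 regions of both conditions without STAT5A, the 347 were lower by -11.0 and -13.5 points without IL3, differed by -0.06 points in replicate 1 with IL3 and were higher by 8.05 points in replicate 2 with IL3, so the sign was not the same in all libraries and no test was planned. A comparison added after the data were seen set the 347 against the 12735 STAT5A regions that were found with IL3 alone and overlap no HDAC3 region. Those overlapped LSD1 in 0.879% and 18.5% without IL3 and in 10.0% and 17.4% with it, so that the 347 were higher by a mean of 33.3 points, in 4 of 4 libraries (same exact test, p = 0.125, adjusted 0.167). No test over 4 libraries can pass 0.05. The rule was also run with the HDAC3 replicate 2 list with IL3 in place of the pooled one, giving 12 regions. For those 12 the 3 tested mean differences were 14.8, -53.9 and 6.38 points. HDAC3 scores differed between these classes too, with 68.4% of the IL3-only regions without STAT5A at 14 or less. Among regions at or above the median HDAC3 score, which kept 222 of the 347, the mean difference from IL3-only regions without STAT5A was 17.5 points.

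The LSD1 lists differ in length, so the shares were also taken with the 1005 highest-scoring regions of each. The 347 regions were then overlapped in 6.05% and 10.4% without IL3 and in 18.4% and 17.3% with it. Both libraries with IL3 lay above both without, by a mean of 9.65 points (two-sided exact permutation test, p = 0.333, the smallest possible for 2 against 2). Equal length does not remove the coarser score steps of replicate 1 without IL3, whose regions were all kept. All HDAC3 regions gave 14.1% and 22.0% without IL3 and 22.4% and 22.8% with it. IL3-only HDAC3 regions without STAT5A gave 4.67% and 4.95% without IL3 and 4.67% and 3.30% with it, and those of both conditions with STAT5A gave 30.1% and 49.7%, then 46.1% and 48.3%. HDAC3 regions of both conditions without STAT5A gave 17.0% and 23.7% without IL3 and 17.0% and 20.7% with it. The libraries of the 2 conditions did not overlap in the set of 347 or in all HDAC3 regions, which include the set. They overlapped in each of the other classes of HDAC3 region. The difference between classes was not tested. With lists of equal length the mean difference of the 347 from IL3-only HDAC3 regions without STAT5A was 8.65 points in place of 23.3. From STAT5A regions without HDAC3 it was 11.8 points in place of 33.3, and from HDAC3 regions of both conditions with STAT5A it was -30.5 in place of -28.1.

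**Figure D3:**
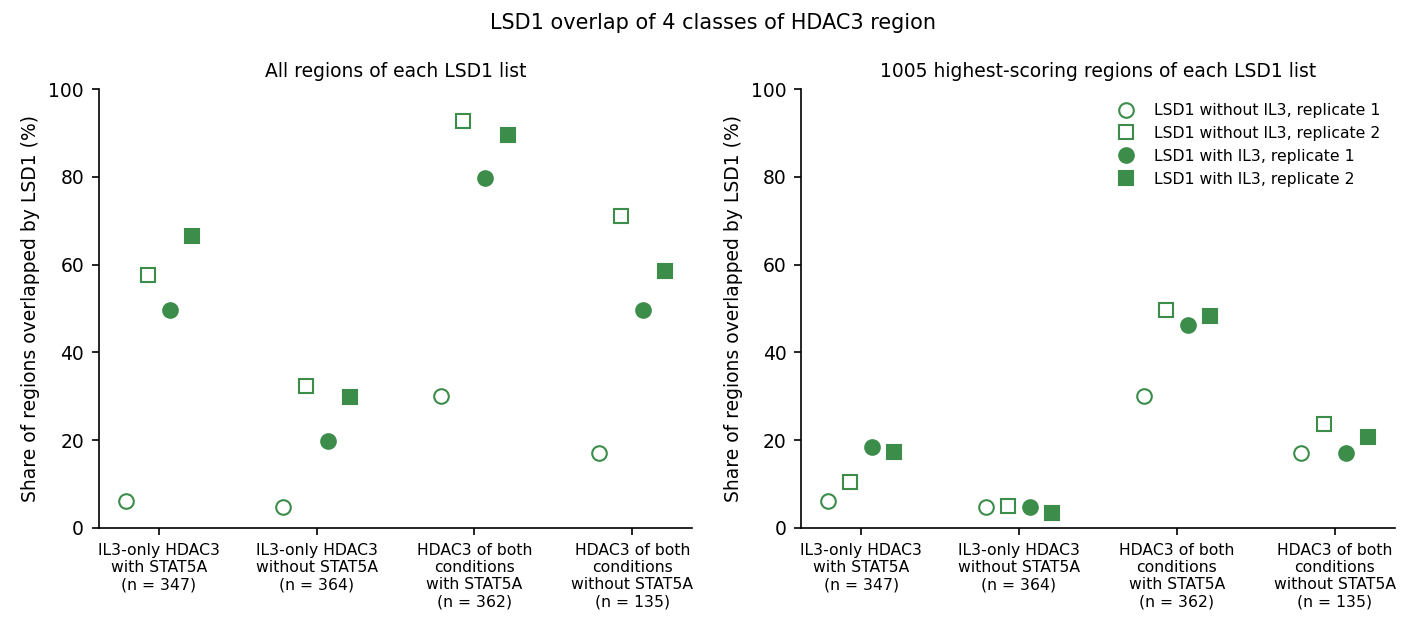
Share of 4 classes of HDAC3 region with IL3 that overlap LSD1, in percent, for each LSD1 library (open without IL3, filled with IL3, circles replicate 1, squares replicate 2). Left, all regions of each list; right, the 1005 highest-scoring regions of each, where the 347 regions (first column) stand at 6.05% and 10.4% without IL3 and at 18.4% and 17.3% with it.

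Taken region by region, both LSD1 replicates with IL3 and neither without called 39 of the 347 (11.2%, 95% Wilson interval 8.33 to 15.0), beside 4.64% of all pooled HDAC3 regions with IL3. The same pattern held for 9 of 364 IL3-only regions without STAT5A (2.47%) and 3 of 362 of both conditions with STAT5A (0.829%). It held for 5 of 135 of both conditions without STAT5A (3.70%). The reverse pattern was seen in 2 of the 347, at the starts of Tm9sf3 and Sipa1. All 4 libraries called 15 (4.32%, beside 11.8% of all), and none called 63 (18.2%, beside 22.8%). Of the 39, 8 were in the pooled LSD1 list without IL3. The 39 include one of the Cish regions, one at Rhoh and one beside Zfp36. Rhoh, a small GTPase of blood cells, had LSD1 at 39.6 and 48 with IL3, STAT5A at 413.9 and 50, and HDAC3 at 32.9 in replicate 1. Zfp36, which encodes the mRNA-destabilizing protein tristetraprolin, had LSD1 at 52 and 61.3, STAT5A at 186.5 and 290.1, and HDAC3 at 32.9 in replicate 1, although the pooled LSD1 list without IL3 also held a region there (40.6). The short list of replicate 1 without IL3 enters this pattern as it does the mean, and its part in the count was not tested.

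With IL3, both STAT5A and both LSD1 replicates called a region at 80 of the 347 (23.1%), beside 18% of all pooled HDAC3 regions and 38.1% of those of both conditions with STAT5A. HDAC3 replicate 1 also called 50 of these 80 (14.4% of the 347, beside 12.7% of all and 28.5% of both conditions with STAT5A), and HDAC3 replicate 2 called none of the 50. In no STAT5A list without IL3 were 39 of the 50 (11.2% of the 347, beside 6.21% of all and 9.94% of both conditions with STAT5A). The rule required pooled STAT5A with IL3, so these shares are a description. By HDAC3 score the group of 80 begins with Max, Cish, Tbl1xr1 (the distant region), Rhoh, Nt5c3, Arid5a, Rai14, Med29 beside Zfp36, Dennd1b and Ksr1. Arid5a, an mRNA-binding protein gene, differed from Cish in that LSD1 was called in all 4 libraries at its start, at 121 and 97.5 without IL3 and 79.2 and 109.3 with it. Over the 12 replicate lists, a region of the set was in 4 (median), 7 regions were in none, and 1, nearest to Runx1, was in 8.

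By position, the set lay mostly away from gene starts, as did all pooled HDAC3 and STAT5A regions with IL3. The centre was within 1 kb of the start or end of a protein-coding gene in 74 of 347 (21.3%, 95% Wilson interval 17.3 to 25.9), beside 23.4% of all pooled HDAC3 and 25% of all pooled STAT5A regions with IL3. The share was 36.3% in IL3-only HDAC3 regions without STAT5A and 11.05% in HDAC3 regions of both conditions with STAT5A. The median distance to a gene start or end was 10.6 kb, beside 2.53 and 16.4 kb in those classes, so the set lay between the 2. With a single list in place of the pooled one, the share within 1 kb was 33.3% for HDAC3 replicate 2 with IL3 (12 regions). It was 12.7% for HDAC3 replicate 1 with IL3 and 12.3% for STAT5A replicate 1 with IL3. Within 1 kb of a start, where strand was known, lay 63 of 339 (18.6%, beside 19.2%). Inside a protein-coding gene lay 170 (49.0%, beside 55.5% of HDAC3 and 54.5% of STAT5A regions). No exon or intron annotation was used, and regions are not independent replicates, so these shares have no test.

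**Figure D4:**
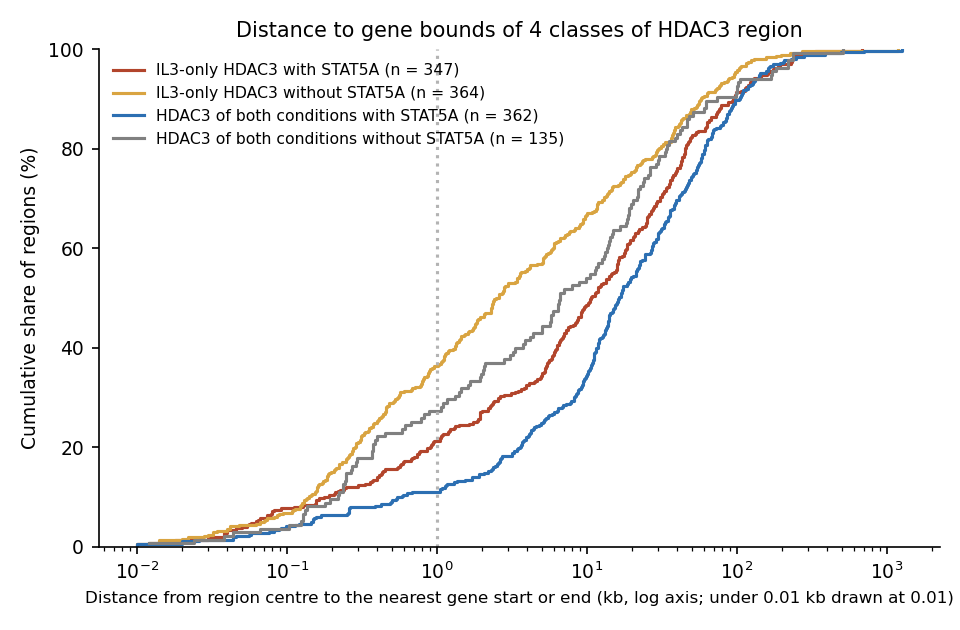
Cumulative share of regions (vertical, percent) by the distance from the region's centre to the nearest start or end of a protein-coding gene (horizontal, kb, log axis), for 4 classes of HDAC3 region with IL3. At 1 kb (dotted line) the curve of the 347 regions stands at 21.3%, between 11.05% for HDAC3 of both conditions with STAT5A and 36.3% for IL3-only HDAC3 without STAT5A.

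The regions close to gene bounds had weaker support than the rest. Of the 74 within 1 kb, 20 (27.0%) were in HDAC3 replicate 1 and 18 (24.3%) in both STAT5A replicates with IL3, and their median STAT5A score was 26.7. Of the 273 farther away, 55.7% were in HDAC3 replicate 1 and 139 (50.9%) in both STAT5A replicates, with a median STAT5A score of 100.4. STAT5A replicate 1 with IL3 called 43.2% of the near and 85.7% of the far regions, and replicate 2 called 60.8% and 57.9%. Without IL3, the pooled STAT5A list overlapped 27.0% of the near and 15.0% of the far regions. LSD1 in the pool with IL3 overlapped 63.5% and 77.7%. Thus 1 STAT5A library separates the near from the far regions and the other does not. This split was added after the data were seen.

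The proteins lay close together within a region. Between the HDAC3 and STAT5A centres the median distance was 46 bp (95% binomial interval of the median 42 to 51, quartiles 24 and 83), and 94 of 347 pairs lay within 25 bp. Overlap itself limits this distance to 163 bp. From HDAC3 to LSD1 with IL3 it was 48 bp over the 259 regions with both, and from LSD1 to STAT5A 47 bp. In HDAC3 regions of both conditions with STAT5A the medians were 41, 34 and 36 bp. Region widths are fixed within a list, at 153 bp for HDAC3 and 175 bp for STAT5A, so centres and not edges carry the position.

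**Figure D5:**
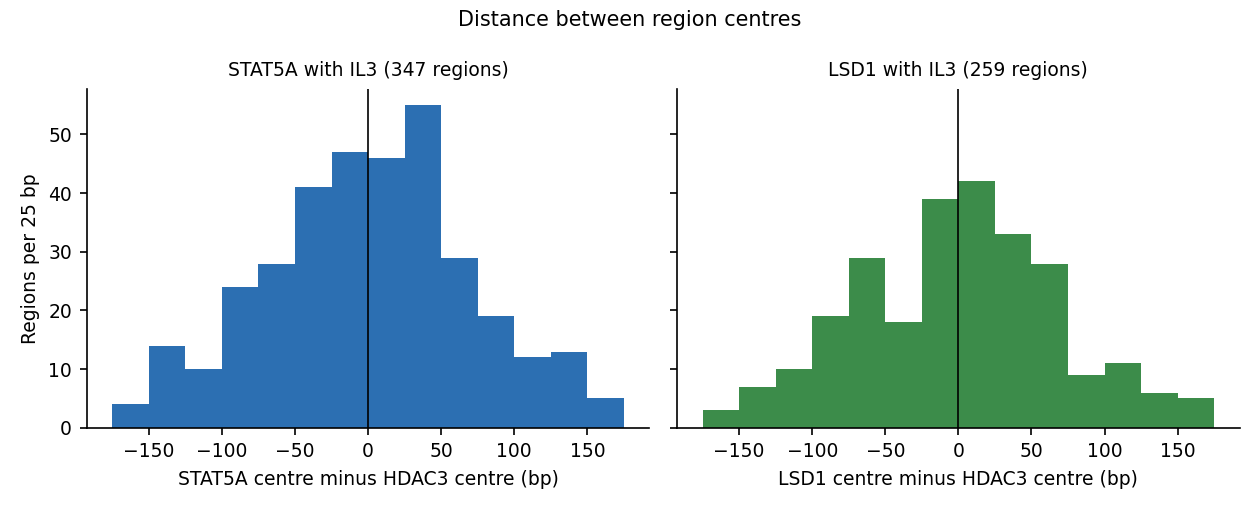
Number of regions (vertical, per 25 bp) by the signed distance from the HDAC3 centre to the STAT5A centre (left, 347 regions) and to the LSD1 centre (right, 259 regions with a pooled LSD1 region with IL3). Both distributions peak near 0, with medians of 46 and 48 bp without regard to sign.

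Genes near the regions were counted by lists of known function, with a region inside the gene or within 10 kb of it. Over all 21883 protein-coding genes, 294 (1.34%) had one. Among STAT5 targets and feedback inhibitors it was 4 of 22, Cish, Osm, Socs3 and Tnfrsf13b, while 20 of the 22 (90.9%) had some STAT5A region with IL3, beside 41.4% of all protein-coding genes. Tnfrsf13b, the receptor TACI of the B lineage, had its region 6.05 kb from the start, with HDAC3 at 17.6, STAT5A at 290.9 and 80 in the replicates, and no LSD1. STAT5A binding was part of the rule, so this count is a description.

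Survival genes gave 3 of 18 in the BCL2 family, all with HDAC3 scores of 14 to 15.8: Bcl2l1, Bmf and Mcl1. Bmf, a pro-death member, had STAT5A at 179 and 130 and LSD1 at 27.2 and 45.3 with IL3, neither of LSD1's replicates without it, and HDAC3 at 19.2 in replicate 1. Mcl1, a survival protein gene, had a low STAT5A score of 17.1 and HDAC3 in neither replicate. Immediate early genes gave 3 of 26 (Ier2, Junb and Zfp36), and MAP kinase phosphatases 1 of 10 (Dusp1). Some STAT5A region with IL3 was at 61.1% of the BCL2 family, 80.8% of immediate early and 80% of phosphatase genes, beside 41.4% of all. The rule required STAT5A, so these counts are a description as well. Junb, an AP-1 subunit gene, had HDAC3 at 21.1 and STAT5A at 36.3, while Ier2 had 14 and 21.4. The region counted for Junb lies 6922 bp outside it and is nearer to Hook2, at 3106 bp. STAT5A was called in that region without IL3 as well, and with IL3 in replicate 1 alone (44.8).

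Cytokine receptor and JAK-STAT genes gave 1 of 29, Il4ra, the IL4 receptor chain, which held 2 regions. Both were in HDAC3 replicate 1 at 21.9, and both had STAT5A in each replicate with IL3, at 335.6 and 150 in the one 2.35 kb from the start and at 164.1 and 100 in the other. Haematopoietic transcription factors gave 1 of 35 (Etv6, HDAC3 19.3, STAT5A 153.8). The corepressor lists gave Gse1, 1 of 15 for LSD1 and CoREST (HDAC3 24.6, STAT5A 29.9), and Tbl1xr1, 1 of 11 for HDAC3 and NCoR. Myeloid and mast cell genes gave 1 of 23, Srgn, the proteoglycan serglycin (HDAC3 14, STAT5A 15). The lists of PIM kinases (0 of 3), B lineage genes (0 of 18), cell cycle genes (0 of 22) and genes of other tissues (0 of 20) had none. Tnfrsf13b was counted among STAT5 targets and not in the B lineage list. Over all protein-coding genes the share was 1.34%, so lists this short can hold none at that share.

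The limits of the rule cut through close cases. The smallest overlaps with STAT5A that still counted were 1 bp at Hspd1 and 2 bp at Cd53 and at Osgin1, and 42 of the 347 overlapped by under 50 bp. Just outside, IL3-only HDAC3 regions at Uggt1, Snx14 and Laptm4a missed a STAT5A region by 3, 8 and 9 bp, and 104 of the 364 without overlap had a STAT5A region within 500 bp. On the other side, regions at or nearest to Ift43, Zfp36l2 and Furin lay 3, 4 and 4 bp from an HDAC3 region without IL3, and 35 of the 347 had one within 500 bp. Regions at Gatad2b and Qrsl1 were left out for overlaps of 4 and 5 bp.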

How the data were processed

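Regions bound by 3 proteins were mapped by ChIP-seq in 12 libraries, 2 per protein and condition. The authors deposited a list of called regions with a score for each library and for each of the 6 pooled groups. Per the submitters' processing notes, the tools were Trimmomatic 0.30, Bowtie2 2.1.0, Picard 1.92 and HOMER 4.8 with mm10; the sources used here do not give the peak-calling threshold, the control or the meaning of the score. The lists hold no read counts, so depth is unknown. Score medians and ranks were taken within a list. Scores of different lists that stand side by side are not on a common scale, since score steps differ between lists.

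Regions off assembled chromosomes were left out, start coordinates were made 1-based, and overlap meant 1 bp or more. LSD1 shares were compared over libraries by exact permutation, with Benjamini-Hochberg adjustment over 4 tests. Gene bounds of 21883 protein-coding genes and 21237 start windows came from RefSeq. Intervals are 95% Wilson intervals. Python 3.11.15, numpy 2.4.6, pandas 2.3.3, scipy 1.17.1 and matplotlib 3.10.9 were used, and the overlap and permutation steps were tested on simulated data. The regions and the 13 gene lists were chosen with earlier results of these data known. Named regions are the 10 with the highest HDAC3 or STAT5A score, those in HDAC3 replicate 2 alone, those in every STAT5A and LSD1 list with IL3 (up to 10), up to 4 genes of a gene list, and groups of 3 or more within 50 kb; a part of them is given. The start windows, Runx1, Clint1, Irf2bpl, Rin1, Tm9sf3, Sipa1 and the regions at the limits of the rule were chosen after their values were seen. Alternatives were other overlap and score limits, single lists in place of pooled ones, each library left out, equal list lengths and other distances.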

Additional observations from a re-analysis of the deposited data

How the results depend on the processing

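Every LSD1 comparison kept its direction under every alternative run, and none could pass 0.05. Where an HDAC3 or STAT5A library was left out of the rule, the other replicate's list took the place of the pooled one. The regions found that way need not be among the 347. Leaving out 1 library at a time moved the difference with against without IL3 between 0.43 and 52.0 points, that against other IL3-only HDAC3 regions between 14.8 and 30.5, that against HDAC3 regions of both conditions between -53.9 and -25.8, and that against STAT5A regions without HDAC3 between 6.38 and 42.6. The number of regions ran from 12 (without HDAC3 replicate 1 with IL3) to 613 (without HDAC3 replicate 1 without IL3), the share in HDAC3 replicate 1 from 45.8% to 57.8%, that in replicate 2 from 0.361% to 1.91%, the STAT5A share without IL3 from 2.31% to 25%, the share within 1 kb of a gene bound from 12.3% to 33.3% and the median centre distance from 45 to 51 bp. With only the upper part of the HDAC3 list by score there were 222 regions, 64.9% in HDAC3 replicate 1, 14.4% within 1 kb, and the centre distance was 41.5 bp. An overlap of 50% of the shorter region gave 37 bp. Within 5 and 10 kb of a gene bound lay 34.3% and 48.7%. With the replicate number as a block the LSD1 difference with against without IL3 was 26.2 points (exact permutation p = 0.5, the smallest possible); 2 numbers per group do not show that the libraries are paired. The planned share of all regions with a STAT palindrome, and its 100 bp window, were not run, since only start windows were at hand. Low score steps and 2 libraries per group limit all calls. The cause of each change was not tested, other than that fewer or other regions enter.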
